A study of Rattus norvegicus with 12 samples.

Results

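The guidance genes described here were the semaphorins and their plexin and neuropilin receptors, the ephrins and their Eph receptors, the Slits and their Robo receptors, and the netrins. They were chosen by gene symbol alone, as the rows whose name starts with Sema, Plxn, Efna, Efnb, Epha or Ephb or is an Nrp, Slit, Robo or Ntn gene with a number, and no measured value entered the choice. The rule found 64 of the 22601 genes of the expression table. RNA-Seq was done 2 weeks after a defect was drilled into the distal femur of Sprague Dawley rats that were 8 weeks old at surgery, in 4 groups of 3 libraries. The control group received no scaffold, and the other groups received a 3D printed scaffold of gelatin methacryloyl hydrogel, of PCL (polycaprolactone, a polyester that degrades slowly) or of β-TCP (β-tricalcium phosphate, a ceramic that bone cells can resorb). The defect was shared by all groups, and the tissue taken was the newly formed tissue in the control group and the tissue grown with the scaffold in the others. The labels call each library 1 sample of hindlimb bone and do not say whether the libraries of a group came from different rats, so the p-values cover no more than the variation among these 12 libraries. Levels are in FPKM, fragment numbers scaled to gene length and to library size, so that levels of different genes can be set side by side.

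Guidance molecules are known from growing axons, which they attract or repel, and the same ligands steer vessels, immune cells and bone cells. Secreted class 3 semaphorins mostly bind a neuropilin that is paired with a plexin, membrane-bound semaphorins bind plexins directly, ephrins signal between touching cells in the direction of the receptor and of the ligand, Slits act on Robos, and netrins act on Dcc, neogenin and Unc5 receptors. In bone, Sema3a is known to restrain osteoclasts and to favour osteoblasts, Sema4d of osteoclasts acts on osteoblasts through Plxnb1, Plxna1 takes part in osteoclast differentiation, and the pair Efnb2 and Ephb4 couples osteoclasts to osteoblasts. Slit3 is known for its effect on bone formation and on the vessels of bone.

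The depth recovered from the FPKM steps was 15035925 to 17357830 fragments per library. Control replicate 3 and hydrogel replicate 3 stood apart for the guidance genes. Of the 46 guidance genes that were tested (at least 1 FPKM in at least 3 libraries), control replicate 3 was the highest of the 12 libraries for 23 (50.0%, against 14.4% of all 12633 genes tested), and hydrogel replicate 3 was the lowest for 28 (60.9%, against 17.0%). In control replicate 3 the 12 cartilage markers summed to 14632 FPKM, against 2548 and 2566 FPKM in the other control libraries and 222 to 1132 FPKM in the scaffold groups. Its erythroid markers summed to 3629 FPKM and its neutrophil markers to 41.3 FPKM, the lowest of the 12 libraries for both lists, and hydrogel replicate 3 was the lowest of the 12 for the osteoblast and osteocyte (2634 FPKM), osteoclast (2282 FPKM) and macrophage markers (655 FPKM) and the highest for the skeletal muscle (369 FPKM) and B cell markers (646 FPKM). The part of this composition in the results was not tested. β-TCP replicates 2 and 3 were closer to each other than any other pair of a group, with a chi-square of 2.14 per gene between their recovered fragments against 30.4 to 301 in the other 11 pairs, and results were also computed with their mean as 1 library. The osteoblast and osteocyte markers summed to 2634 to 13920 FPKM in the 12 libraries, so bone cell transcripts were present in all.

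The guidance genes differed widely in level. Over the 12 libraries, 9 had a mean of at least 20 FPKM, 15 of 5 to 20 FPKM, 19 of 1 to 5 FPKM and 21 under 1 FPKM. The highest mean was that of Nrp2, a co-receptor of class 3 semaphorins and of vascular endothelial growth factors, at 54.4 FPKM, followed by Plxnd1 at 50.7 FPKM, Sema7a at 42.8 FPKM and Nrp1 at 38.2 FPKM. Of the 18 guidance genes that were not tested, 17 stayed under 1 FPKM in every library, the highest value was 1.01 FPKM, and Epha6 was listed at 0 in all 12. Ligands and receptors stood at like levels in some known pairs and not in others. Efna1 and its receptor Epha2 had means of 6.32 and 6.54 FPKM. Plxnd1, a plexin of endothelial and immune cells, was at 38.7 to 59.7 FPKM in the control group and 54.6 to 56.4 FPKM in the β-TCP group, whereas Sema3e, which binds it directly, had a mean of 0.177 FPKM and at most 0.269 FPKM in any library. Robo4, known from endothelial cells, had at most 0.146 FPKM in a library, while the 10 endothelial markers summed to 119 to 231 FPKM.

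By family, the semaphorins (20 genes, 16 tested) summed to 155 to 168 FPKM in the control group, 112 to 156 FPKM in the hydrogel group, 133 to 169 FPKM in the PCL group and 200 to 209 FPKM in the β-TCP group. The β-TCP libraries were thus above all others. The plexins (9 genes, 7 tested) summed to 157 ± 13.0 FPKM (SD, n = 3) in the β-TCP group and to 116 ± 9.77 FPKM in the control group, and 1 PCL library, at 147 FPKM, reached into the β-TCP range of 143 to 166 FPKM. The Slits (3 genes, 2 tested) summed to 48.1 to 51.0 FPKM in the β-TCP group, above the 17.7 to 43.7 FPKM of the other libraries, and the 2 neuropilins to 111 to 116 FPKM, above the 54.8 to 106 FPKM of the others. Such sums follow the genes of highest level and not every member. In β-TCP, Nrp1 lay below all other libraries and Slit3 within the control range. Sema7a (mean 62.7 against 42.9 FPKM in control) and Sema4d (42.8 against 24.5 FPKM) were higher in β-TCP. Sema3d (8.29 against 17.4 FPKM) and Sema4b (7.47 against 10.1 FPKM) were lower. For the A ephrins, B ephrins, EphA and EphB receptors, Robos and netrins, the highest library was control replicate 3 and the control and β-TCP groups overlapped, as in the EphA receptors (9 genes, 3 tested) with 9.63 to 21.6 FPKM in the control group and 15.0 to 15.3 FPKM in the β-TCP group. The 4 netrins (3 tested) together summed to 1.93 to 5.86 FPKM.

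**Figure D1:**
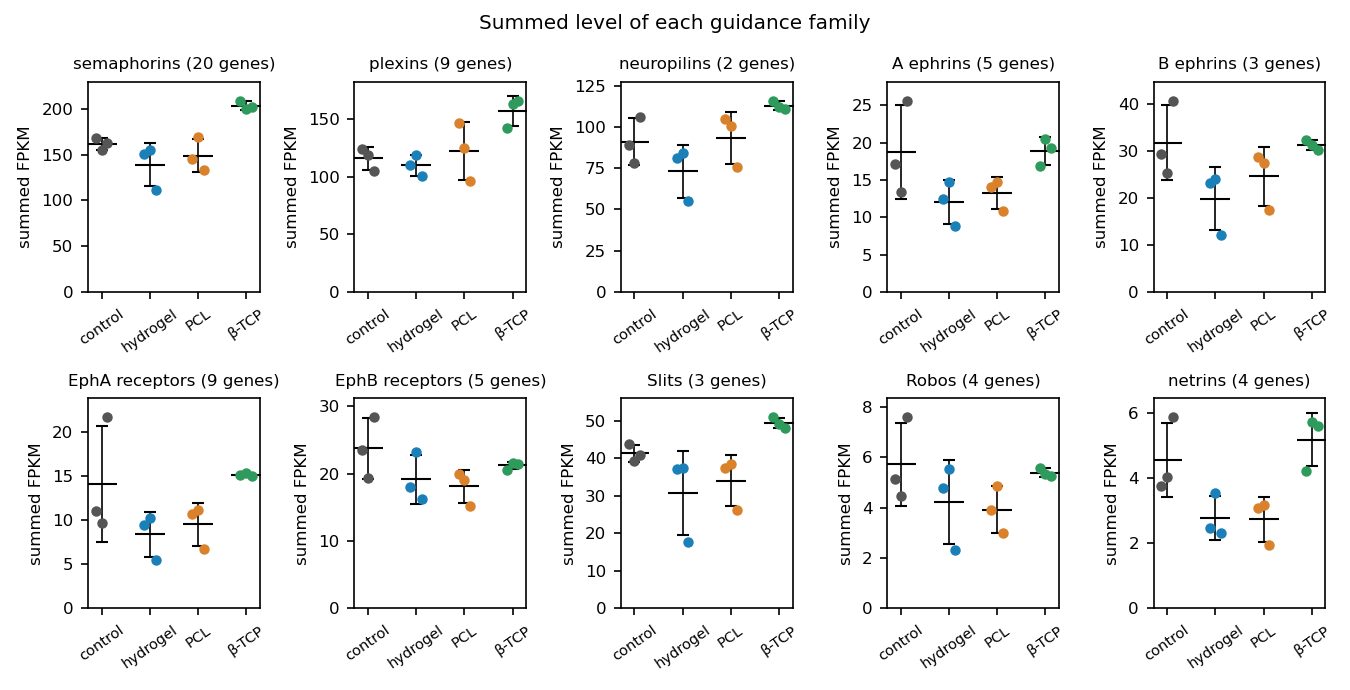
Summed FPKM of each guidance family (y axis, from 0) in the 4 groups (x axis); each point is 1 library, the horizontal line is the group mean and the bars are 1 SD (n = 3). The β-TCP libraries sit above all others for the semaphorins, at 200 to 209 FPKM, the neuropilins, at 111 to 116 FPKM, and the Slits, at 48.1 to 51.0 FPKM, while in 6 of the 10 families the highest point is a control library.

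Among the 46 tested genes, the ratio of the highest to the lowest library had a median of 3.29 and ran from 1.59 for Plxna3 to 9.2 for Sema3d. It was over 4 in 16 genes, and in 7 once control replicate 3 was left out. Sema3d, a secreted semaphorin, went from 3.35 FPKM in PCL replicate 3 to 30.8 FPKM in control replicate 3, and without the latter its ratio was 3.22. Nrp1, the neuropilin best known as the receptor of Sema3a, varied little, from 29.8 to 49.4 FPKM, a ratio of 1.66. Sema3g, made by endothelial cells, went from 4.64 to 8.23 FPKM, a ratio of 1.77. Control replicate 3 was the lowest library for 7 of the 46 genes (15.2%, against 47.6% of all genes tested). Among these were Sema4a at 4.23 FPKM, Sema4b at 3.20 FPKM, Sema4d at 15.3 FPKM, Plxnc1 at 1.66 FPKM and Ephb6 at 1.16 FPKM.

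**Figure D2:**
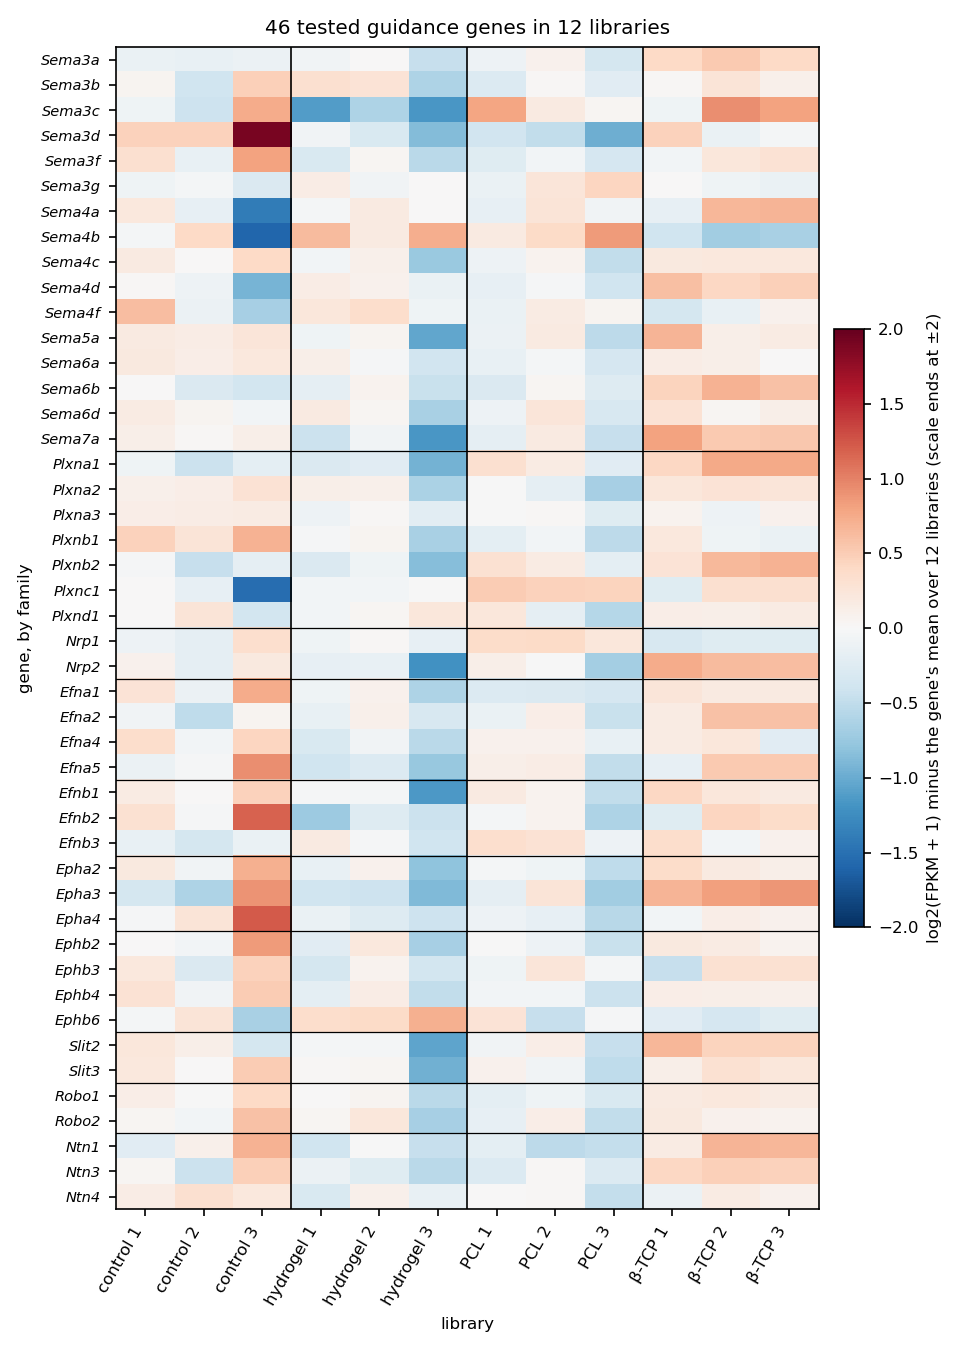
Heat map of the 46 tested guidance genes (rows, by family) in the 12 libraries (columns); the colour is log2(FPKM + 1) minus the mean of the gene over the 12 libraries. Control replicate 3 is the highest library in 23 rows and hydrogel replicate 3 the lowest in 28.

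The scaffold groups were first compared with each other, which asks whether the material changes the guidance genes of the healing tissue. The largest set of changes was in the β-TCP group compared with the hydrogel group, where Nrp2, Plxna1, Plxnb2, Sema3a, Sema3c, Sema6b and Sema7a were higher in β-TCP. These 7 of the 46 passed an adjusted p under 0.05 in limma, with Benjamini-Hochberg adjustment over all 12633 genes, and none was lower, where 5.17% of all genes tested were called higher and 0.966% lower. At the fold threshold of the study (unadjusted p under 0.05 and a fold change over 2 or under 0.5), 5 were higher, namely Epha3, Nrp2, Plxna1, Sema3c and Sema7a, and 1 was lower, Sema4b, where 3.36% of all genes were called higher and 5.02% lower. The median log2 fold change of the 46 was 0.39, with 41 above 0, against a median of -0.06 over all genes tested, of which 44.9% were above 0. Less RNA of a gene can come from fewer cells of a type or from less RNA per cell, and in bulk tissue these cannot be told apart. The adjusted calls rested on single libraries: 0 were left without hydrogel replicate 3, without β-TCP replicate 2 or 3, or with these averaged as 1 library, 1 without hydrogel replicate 1, 3 without PCL replicate 2, 4 without control replicate 1 or β-TCP replicate 1, and 15 (13 higher, 2 lower) without control replicate 3. Here and below, no share of all genes called is given for alternative fits or fits with a library left out. Their counts therefore cannot be set against all genes. Without hydrogel replicate 3 the median of the 46 was 0.22, with 38 above 0, and 2 of the 6 genes were left past the fold threshold, Epha3 and Sema3c.

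Nrp2 was at 86.1, 80.0 and 79.1 FPKM in the β-TCP group, 45.3, 45.8 and 21.4 FPKM in the hydrogel group, 55.5, 50.9 and 31.4 FPKM in the PCL group and 53.9, 44.7 and 58.4 FPKM in the control group. All β-TCP libraries stood above all others. On the log2(FPKM + 1) scale, Nrp2 was higher than in the hydrogel group by 1.18 (SE 0.29, limma adjusted p = 0.040), and by 0.83 without hydrogel replicate 3 (adjusted p = 0.12), which was under the fold threshold. Of the 7 tested plexins, the receptors through which neuropilins and membrane semaphorins signal, Plxna1 and Plxnb2 passed in the same comparison, and the other 5 had differences of 0.08 to 0.38 (limma adjusted p of 0.22 to 0.80). Plxna1, a plexin of osteoclasts and dendritic cells, was at 26.3, 33.7 and 33.5 FPKM in the β-TCP group, 15.7, 16.6 and 9.59 FPKM in the hydrogel group, 24.7, 21.9 and 16.5 FPKM in the PCL group and 18.2, 14.2 and 16.9 FPKM in the control group. The lowest β-TCP library lay above the highest PCL library, so that the groups did not overlap. The difference from the hydrogel group was 1.13 (SE 0.21, limma adjusted p = 0.018), and 0.90 without hydrogel replicate 3. Plxnb2, a plexin that binds class 4 semaphorins, was at 40.6, 52.9 and 54.3 FPKM in the β-TCP group against 27.0, 31.2 and 18.0 FPKM in the hydrogel group, a difference of 0.95 (SE 0.22, limma adjusted p = 0.033), and PCL replicate 1, at 41.2 FPKM, overlapped with β-TCP.

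Of the ligands, Sema7a, which is anchored in the membrane by a lipid and binds Plxnc1 and β1 integrins, was at 70.9, 58.3 and 58.9 FPKM in the β-TCP group, 29.8, 38.6 and 17.5 FPKM in the hydrogel group, 35.7, 45.8 and 29.0 FPKM in the PCL group and 43.7, 41.0 and 44.0 FPKM in the control group. It was highest in the β-TCP libraries without overlap, and differed from the hydrogel group by 1.17 (SE 0.25, limma adjusted p = 0.026), or by 0.86 without hydrogel replicate 3. Its receptor Plxnc1 did not pass in this comparison (0.17, SE 0.33). Sema6b, a transmembrane semaphorin, was at 5.72, 6.98 and 6.38 FPKM in the β-TCP group, 3.35, 4.17 and 2.63 FPKM in the hydrogel group, 3.03, 4.09 and 3.13 FPKM in the PCL group and 3.94, 3.03 and 2.83 FPKM in the control group. The other 9 libraries of Sema6b lay within 2.63 to 4.17 FPKM and the β-TCP libraries above them. It was the 1 guidance gene that differed among the 4 groups in the F test of limma (adjusted p = 0.049), a test that called 2.98% of all genes. Without control replicate 3 the F test called 12 guidance genes, without hydrogel replicate 2 it called 2, and with any other library left out 0. No share of all genes called is given for these fits, so the 12 cannot be read as particular to guidance genes. The secreted Sema3a was low throughout, with 1.97, 2.21 and 1.97 FPKM in the β-TCP group and 0.628 to 1.37 FPKM in the other 9 libraries, and differed from the hydrogel group by 0.62 (SE 0.15, limma adjusted p = 0.042).

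Sema3c, a secreted semaphorin best known from the developing heart, set the hydrogel group apart from the rest. It was at 3.01, 4.66 and 2.85 FPKM there, against 7.13, 5.47 and 13.5 FPKM in the control group, 13.9, 8.85 and 7.94 FPKM in the PCL group and 7.14, 15.5 and 14.2 FPKM in the β-TCP group. All 3 hydrogel libraries lay below all others. The difference of β-TCP from hydrogel was 1.51 (SE 0.35, limma adjusted p = 0.035), and it stayed past the fold threshold under every alternative and with each library left out, at 1.32 to 1.83 in the latter. Epha3, a receptor of A ephrins, was at 4.65, 5.17 and 5.50 FPKM in the β-TCP group and 1.66, 1.63 and 0.910 FPKM in the hydrogel group, and its difference of 1.36 (SE 0.36, limma adjusted p = 0.052) also stayed past the fold threshold in all of them. Control replicate 3, at 5.56 FPKM against 1.74 and 1.30 FPKM in the other control libraries, overlapped with the β-TCP group. Sema4b, a transmembrane semaphorin, went the other way, with 8.56, 6.80 and 7.05 FPKM in the β-TCP group and 18.5, 13.3 and 19.9 FPKM in the hydrogel group, and differed by -1.09 (SE 0.42, limma adjusted p = 0.10). This call ended without hydrogel replicate 1 or 3, without β-TCP replicate 2 or 3, and with the latter averaged.

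**Figure D3:**
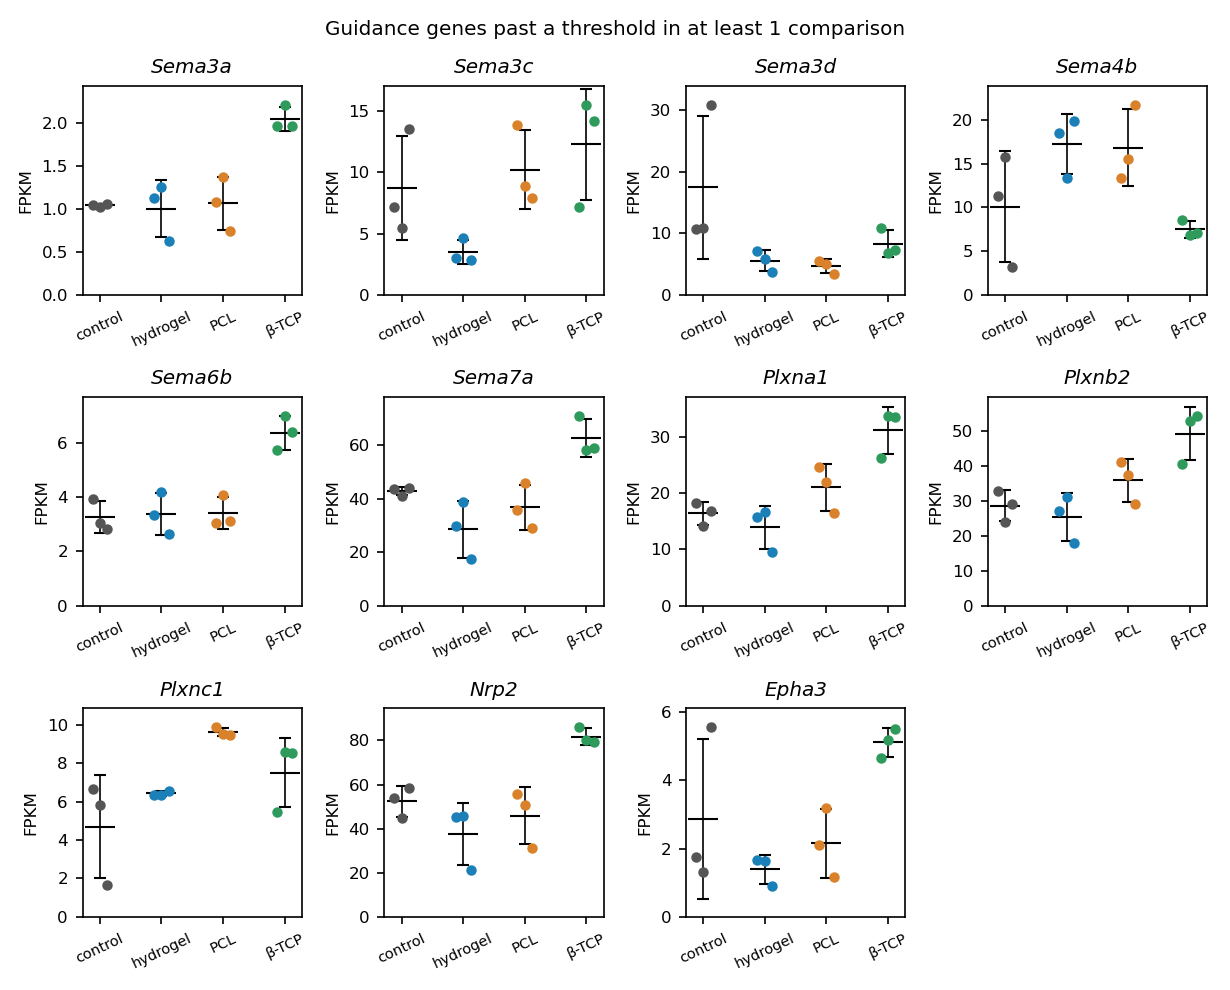
FPKM (y axis, from 0) of the 11 guidance genes past a threshold in at least 1 comparison; each point is 1 library in the order of replicates 1 to 3, the horizontal line is the group mean and the bars are 1 SD (n = 3). The β-TCP points of Nrp2 (79.1 to 86.1 FPKM), Plxna1 (26.3 to 33.7 FPKM), Sema3a (1.97 to 2.21 FPKM), Sema6b (5.72 to 6.98 FPKM) and Sema7a (58.3 to 70.9 FPKM) sit above all other points. The control group of Sema3d, Plxnc1 and Epha3 holds 1 point far from the other 2.

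To look for letters that these promoters share, the 250 bases before the start of the genes called higher in β-TCP than in hydrogel are given from RefSeq (build GRCr8, which differs from the Rnor_6.0 named for the files), 5′ to 3′, with capitals for GC boxes (GGGCGG) and CCAAT boxes (CCAAT) on either strand. Plxna1 and Sema3a had no entry.
Nrp2, chr9:71617004-71617253, plus strand: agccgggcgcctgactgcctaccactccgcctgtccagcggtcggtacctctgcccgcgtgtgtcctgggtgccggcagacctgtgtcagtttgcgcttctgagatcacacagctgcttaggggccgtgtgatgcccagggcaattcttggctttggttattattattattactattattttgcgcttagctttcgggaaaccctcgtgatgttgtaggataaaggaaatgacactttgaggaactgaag
Plxnb2, chr7:122137949-122138198, minus strand: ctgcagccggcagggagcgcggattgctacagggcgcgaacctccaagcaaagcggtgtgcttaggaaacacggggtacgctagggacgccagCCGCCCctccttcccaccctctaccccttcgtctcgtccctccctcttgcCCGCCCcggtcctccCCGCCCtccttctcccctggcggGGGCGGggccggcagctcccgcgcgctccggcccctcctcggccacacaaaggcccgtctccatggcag
Sema3c, chr4:18699628-18699877, minus strand: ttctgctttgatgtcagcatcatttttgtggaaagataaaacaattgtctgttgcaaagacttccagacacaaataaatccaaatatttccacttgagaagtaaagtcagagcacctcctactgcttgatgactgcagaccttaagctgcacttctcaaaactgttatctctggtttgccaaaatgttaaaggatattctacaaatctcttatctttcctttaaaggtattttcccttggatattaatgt
Sema6b, chr9:1047743-1047992, minus strand: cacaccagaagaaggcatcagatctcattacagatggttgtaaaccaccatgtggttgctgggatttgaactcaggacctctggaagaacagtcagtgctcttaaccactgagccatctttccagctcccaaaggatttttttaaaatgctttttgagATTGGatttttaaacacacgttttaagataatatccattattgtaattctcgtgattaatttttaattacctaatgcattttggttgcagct
Sema7a, chr8:67244068-67244317, plus strand: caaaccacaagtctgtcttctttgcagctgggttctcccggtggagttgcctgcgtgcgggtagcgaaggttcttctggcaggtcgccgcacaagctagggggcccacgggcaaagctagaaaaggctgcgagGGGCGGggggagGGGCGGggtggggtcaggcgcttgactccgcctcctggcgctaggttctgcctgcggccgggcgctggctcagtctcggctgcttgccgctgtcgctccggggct
The 5 sequences differed in base composition. GC content was 71.6% for Plxnb2 and 67.6% for Sema7a, which held 4 and 2 GC boxes, 52.8% for Nrp2 with none, and 35.2% for Sema3c and 37.2% for Sema6b, the latter with 1 CCAAT box. Over the 51 of 64 guidance genes with an entry, the median GC content was 62.8% (35.2 to 83.2%), against 51.2% over all 33469 promoters of the same length. Guidance genes entered by the first promoter listed for each, whereas the comparison took every listed promoter, with no reduction to a single promoter per gene. A GC box was found in 28 of the 51 (54.9%, against 30.5% of all promoters), a CCAAT box in 18 (35.3%, against 34.0%), an AP-1 site (TGANTCA) in 1 (1.96%, against 6.34%) and a TATA box (TATAAA) in 0 (0.0%, against 12.9%). Both strands were searched, and a GC box read on the other strand (CCGCCC) can share its last letters with a CCAAT box.

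Compared with the control group, which asks what the ceramic scaffold adds to a healing defect, the β-TCP group had 2 guidance genes higher at an adjusted p under 0.05, Plxna1 and Sema6b, where 4.22% of all genes were called higher, and 0 lower, where 0.562% were. Plxna1 was higher by 0.88 (SE 0.21, limma adjusted p = 0.043) and Sema6b by 0.79 (SE 0.16, limma adjusted p = 0.028), and no library of the control group overlapped with β-TCP for either gene. At the fold threshold 0 were called higher (2.49% of all genes) and 0 lower (1.03%), while 11 of the 46 had an unadjusted p under 0.05 in limma (9 higher and 2 lower, where 14.7% and 3.25% of all genes were) and limma-voom on the recovered fragments called 1 past the fold threshold and 1 at the adjusted p. The 2 adjusted calls became 0 without control replicate 2, without β-TCP replicate 2 or 3 and with these averaged, 1 without hydrogel replicate 1, PCL replicate 1 or 2 or β-TCP replicate 1, 3 without PCL replicate 3, and 4 without control replicate 3 or hydrogel replicate 3. Past the fold threshold the 0 became 3 without control replicate 1, 2 without β-TCP replicate 1 and 1 without control replicate 2 or 3. Without control replicate 3 that gene was Epha3, at 1.28 (SE 0.25, limma adjusted p = 0.025). The median of the 46 genes was 0.05 against 0.03 over all genes, and was -0.02 with median-of-ratios scaling, 0.13 without control replicate 3, 0.0 without control replicate 2, and 0.01 to 0.03 when control replicate 1 or any β-TCP library was dropped.

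Sema4d, the semaphorin of osteoclasts that is known to hold back bone formation, was at 46.0, 40.2 and 42.1 FPKM in the β-TCP group and 30.4, 27.8 and 15.3 FPKM in the control group, without overlap. Its difference was 0.84 (SE 0.22, limma adjusted p = 0.056), and 0.54 without control replicate 3 (adjusted p = 0.037). Its receptor Plxnb1 was at 8.65, 7.31 and 10.3 FPKM in the control group and 7.06, 5.55 and 5.40 FPKM in the β-TCP group, a difference of -0.47 (SE 0.21, limma adjusted p = 0.26), so that ligand and receptor stood in opposite order. The lower Plxnb1 was not particular to β-TCP. It differed from control by -0.68 in hydrogel (limma adjusted p = 0.31) and by -0.73 in PCL (limma adjusted p = 0.16), also without overlap. Sema3a was at 1.04, 1.02 and 1.06 FPKM in the control group, and its difference of 0.58 missed the threshold (limma adjusted p = 0.058). Nrp1, its co-receptor, was lower in the β-TCP group, at 29.8, 31.8 and 31.7 FPKM, than in any library of the control (33.2 to 47.8 FPKM), hydrogel (33.4 to 38.2 FPKM) or PCL groups (44.0 to 49.4 FPKM), and the adjusted p in limma was 0.29 against control, 0.31 against hydrogel and 0.084 against PCL. Nrp1 and Nrp2 were thus in opposite order in β-TCP. Sema6d, a ligand of Plxna1, had 10.1 ± 1.03 FPKM (SD, n = 3) in the β-TCP group and 9.42 ± 0.774 FPKM in the control group, and did not pass (0.09, SE 0.21).

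**Figure D4:**
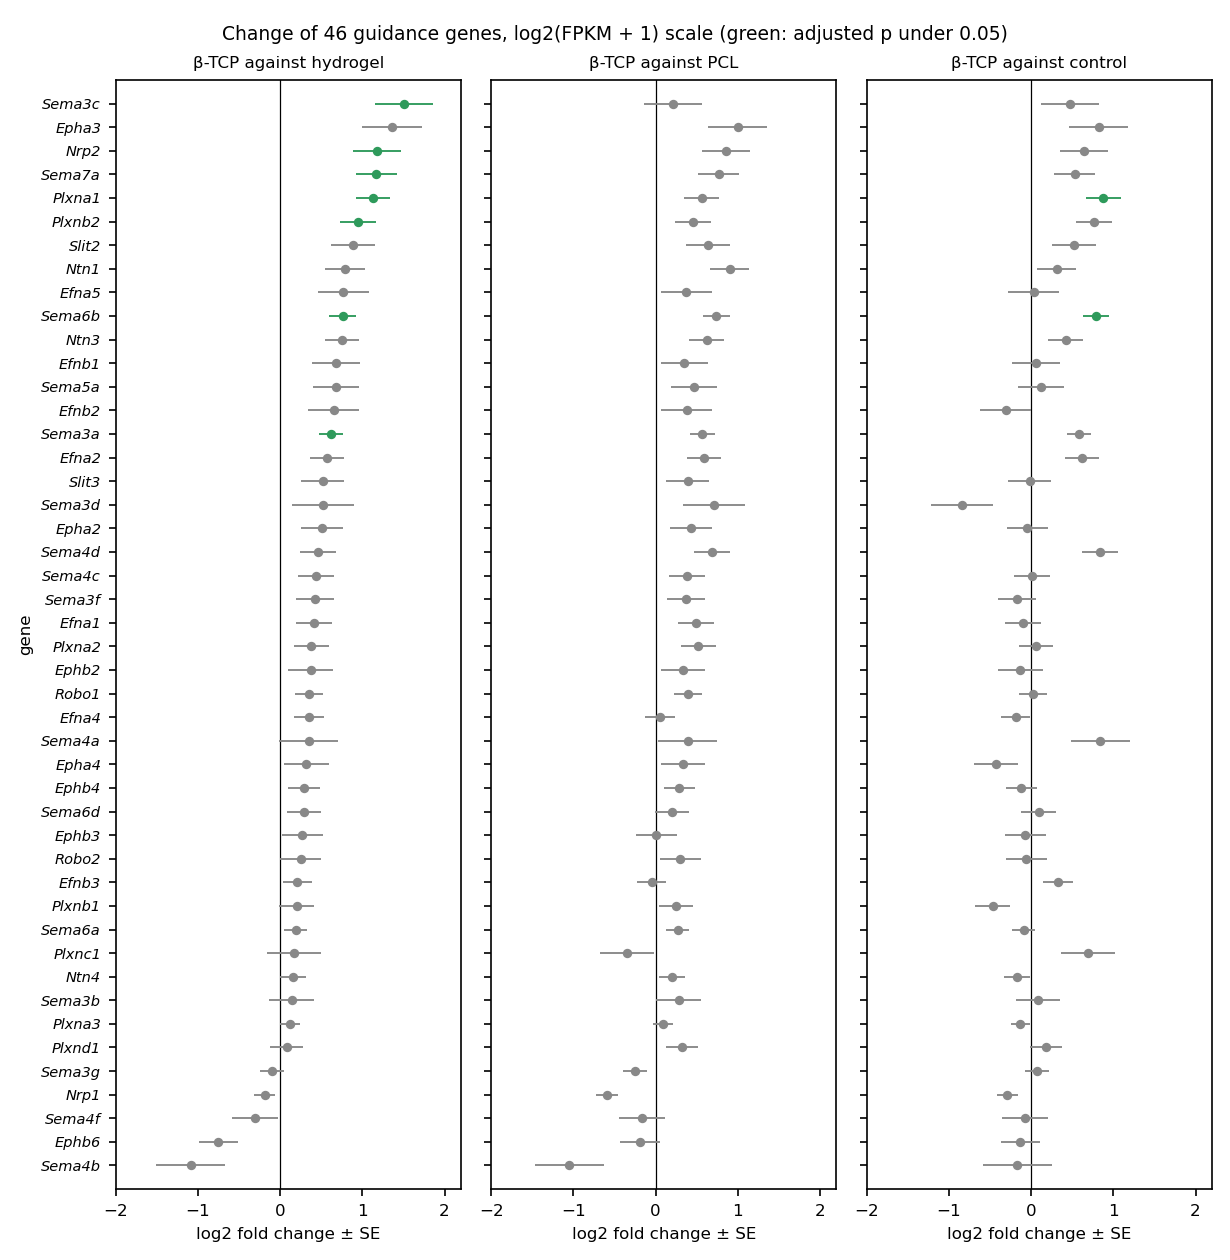
Difference of the β-TCP group from the hydrogel, PCL and control groups (x axis, log2 fold change on the log2(FPKM + 1) scale with its SE) for the 46 tested guidance genes (y axis, in the order of β-TCP against hydrogel); green marks an adjusted p under 0.05 in limma. In the first panel 41 of the 46 points lie above 0 and 7 are green, in the second 39 lie above 0 and 0 are green, and in the third 26 lie above 0 and 2 are green; the 3 panels share the β-TCP libraries.

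Markers of other cell types moved with the β-TCP group. The 7 osteoclast markers, with Ctsk (cathepsin K) the most abundant, summed to 9469 to 9671 FPKM in the β-TCP group, 2282 to 5177 FPKM in the hydrogel group, 3365 to 4926 FPKM in the PCL group and 3432 to 5562 FPKM in the control group. In β-TCP against hydrogel all 6 that were tested passed the fold threshold, while Dcstamp, a fusion protein of osteoclasts, was at or near 0 in all 12 libraries. The 10 macrophage markers summed to 1288 to 1784 FPKM in the β-TCP group and 655 to 1011 FPKM in the others. Their median in β-TCP was 0.76 against hydrogel, with 2 higher and 1 lower past the fold threshold. It was 0.83 against PCL, with 3 higher and 1 lower, and 0.98 against control, with 5 higher and 0 lower. At an adjusted p under 0.05 in limma, 8 were higher than in control (4.22% of all genes) and 4 than in hydrogel (5.17%). Against PCL 2 were higher, where 0.657% of all genes were called in either direction. In each of the 3 comparisons 0 were lower. Against hydrogel, where Sema4b was lower, 6 neutrophil and 7 B cell markers were lower past the fold threshold, with sums of 847 to 1226 and 54.8 to 115 FPKM in β-TCP and 2271 to 4665 and 338 to 646 FPKM in hydrogel. At an adjusted p under 0.05 in limma, 0 markers of either list were lower. The part of these cells in the guidance gene results was not tested. The 12 cartilage markers were lower in every scaffold group than in the control group, with 11 of 11 tested past the fold threshold in each. At an adjusted p under 0.05 in limma, 0 were lower in hydrogel, 0 in PCL and 7 in β-TCP. The part of cartilage markers in the differences from control was not tested either. The endothelial markers summed to 179 to 189 FPKM in the β-TCP group, inside the control range of 154 to 231 FPKM and above the hydrogel (140 to 177 FPKM) and PCL libraries (119 to 154 FPKM). The osteoblast and osteocyte markers summed to 9241 to 11458 FPKM in the β-TCP group, above the 2634 to 6948 FPKM of the hydrogel group and the 5092 to 7443 FPKM of the PCL group, and within the control range of 6404 to 13920 FPKM. The erythroid markers summed to 13366 to 29760 FPKM in the β-TCP group, below all hydrogel and PCL libraries (40208 to 130912 FPKM). The part of these lists was not tested either. Adipocyte markers summed to 644 to 952 FPKM in the PCL group and 70.1 to 536 FPKM in the others. In PCL the 4 tested had a median of -0.72 against control and -0.25 against hydrogel. Past the fold threshold 1 was higher in each. Smooth muscle and pericyte markers summed to 276 to 386 FPKM in the β-TCP group and 145 to 228 FPKM in the hydrogel and PCL groups. T cell markers summed to 198 to 204 FPKM in the β-TCP group and 49.5 to 171 FPKM elsewhere. In β-TCP against hydrogel their median was -0.26, with 1 of 7 higher past the fold threshold. Schwann cell and nerve markers summed to 31.4 to 147 FPKM in the control group and 13.0 to 30.0 FPKM elsewhere. Of the 4 tested, 1 was lower past the fold threshold in each scaffold group against control. Their medians were 0.42 in hydrogel, -0.28 in PCL and 0.09 in β-TCP. Skeletal muscle markers summed to 13.9 to 369 FPKM over all libraries.

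**Figure D5:**
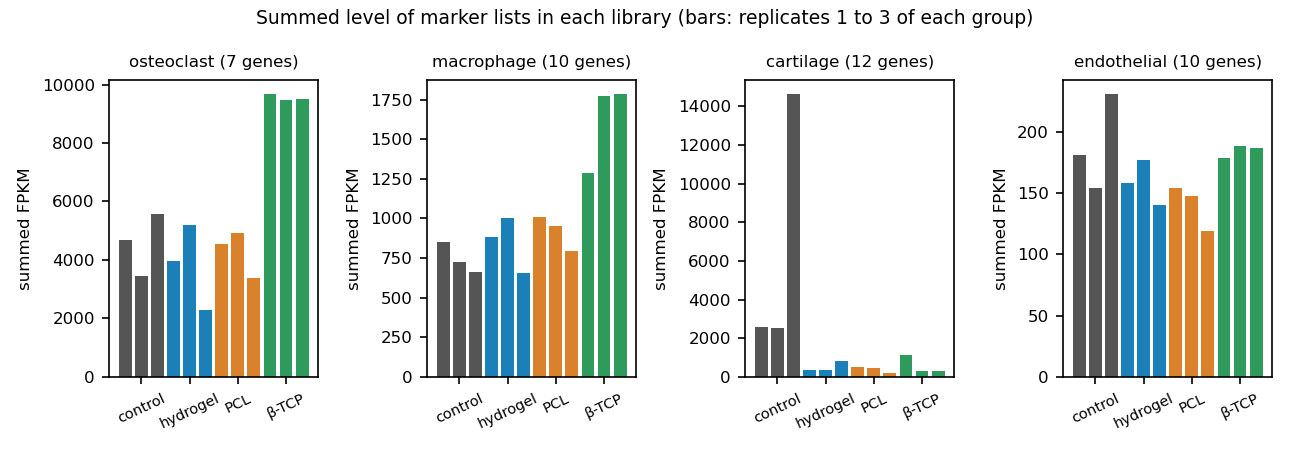
Summed FPKM (y axis, from 0) of osteoclast, macrophage, cartilage and endothelial marker genes in each of the 12 libraries (bars; 3 replicates per group, in order). The osteoclast sum is 9469 to 9671 FPKM in the β-TCP group and at most 5562 FPKM elsewhere, and the cartilage sum is 14632 FPKM in control replicate 3.

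Compared with the PCL group, 39 of the 46 guidance genes were higher in the β-TCP group (median 0.37, against 0.04 over all genes, of which 54.5% were above 0, and 0.21 without PCL replicate 3), but 0 passed an adjusted p under 0.05 in limma, where 0.657% of all genes did. The smallest adjusted p was 0.080, of Sema6b (0.74, SE 0.16), and 16 genes had an unadjusted p under 0.05, 14 higher and 2 lower (13.1% and 9.34% of all genes), while limma-voom gave 16 and, at an adjusted p, 0. At the fold threshold Epha3 was higher by 1.0 (SE 0.36), 1 gene where 1.14% of all genes were called higher, and Sema4b was lower, at -1.05 (SE 0.42), 1 gene where 3.34% were called lower. PCL libraries of Epha3 were at 2.10, 3.19 and 1.16 FPKM and those of Sema4b at 13.3, 15.5 and 21.7 FPKM, and neither gene overlapped with β-TCP. The call of Epha3 ended with median-of-ratios scaling, with β-TCP replicates 2 and 3 averaged (0.98) and without PCL replicate 3 or β-TCP replicate 2 or 3. That of Sema4b ended with the same average (-1.01) and without PCL replicate 2 or 3 or β-TCP replicate 2 or 3. The 2 calls became 4 without PCL replicate 1. Without control replicate 3, 7 genes passed the adjusted p (5 higher, 2 lower), and without hydrogel replicate 3, 1 did. Control replicate 3 enters this comparison through the shared spread and the choice of genes tested (45 guidance genes without it). No share of all genes called is given for these fits.

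The hydrogel and PCL groups stood lower than the control group for most guidance genes. In the hydrogel group 35 of the 46 were below 0 (median -0.34), whereas 67.3% of all genes tested were above 0 (median 0.14). With median-of-ratios scaling the median over all genes was 0.02 and that of the guidance genes -0.43. In the PCL group 31 of the 46 were below 0 (median -0.22), whereas 55.4% of all genes were above 0 (median 0.04). Without PCL replicate 3 the median was -0.11, with 20 above 0 (0.08 and 63.0% over all genes). Without control replicate 2 it was -0.35. An adjusted p under 0.05 in limma was reached by 0 guidance genes in hydrogel (0.00792% of all genes) and by 0 in PCL (0.277%), with a smallest adjusted p of 0.31 and 0.11. At an unadjusted p under 0.05 there were 13 in hydrogel (1 higher, 12 lower, where 8.62% of all genes were higher and 6.37% lower) and 11 in PCL (2 higher, 9 lower, where 11.1% and 7.34% were) in limma, and 15 and 12 in limma-voom, which gave 0 at the adjusted p in both. These comparisons share the control libraries, and control replicate 3 was the highest library for 23 of the 46, without which the medians were -0.24 and -0.16 (0.03 and -0.06 over all genes). Without hydrogel replicate 3 the median in hydrogel was -0.18.

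Past the fold threshold were Sema3c and Sema3d in the hydrogel group, both lower (2 genes, where 1.48% of all genes were called lower and 0 guidance genes higher, against 0.807%), and in the PCL group Sema3d, lower (1 gene, against 1.27%), and Plxnc1, higher (1 gene, against 2.37%). Sema3d was at 10.7, 10.8 and 30.8 FPKM in the control group, 7.09, 5.89 and 3.66 FPKM in the hydrogel group and 5.52, 5.07 and 3.35 FPKM in the PCL group. All 6 of these scaffold libraries lay below all control libraries, while β-TCP, at 10.8, 6.78 and 7.29 FPKM, overlapped with control. Its difference was -1.56 in PCL (SE 0.38, limma adjusted p = 0.11) and -1.36 in hydrogel (SE 0.38, limma adjusted p = 0.31). Without control replicate 3 these were -1.08, still past the fold threshold, and -0.88, no longer past it. Plxnc1, the receptor of Sema7a and a plexin of myeloid cells, was at 9.89, 9.55 and 9.47 FPKM in the PCL group, 6.65, 5.80 and 1.66 FPKM in the control group and 6.35, 6.37 and 6.58 FPKM in the hydrogel group. The PCL libraries were above all others, and the difference from control was 1.04 (SE 0.33, limma adjusted p = 0.18), or 0.56 without control replicate 3, under the fold threshold. The difference of Sema3c in hydrogel was -1.04 (SE 0.35, limma adjusted p = 0.31) and fell short without control replicate 3 or hydrogel replicate 1 or 3.

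Counts past the fold threshold against control moved with the library left out. In hydrogel the 2 became 5 and 4 without control replicate 1 and 2, 0 without control replicate 3, 1 without hydrogel replicate 1 or 3 and 4 without hydrogel replicate 2. In PCL the 2 became 4 without control replicate 1, and 1 without control replicate 3. Between PCL and hydrogel the 46 genes had a median of 0.05 (-0.06 over all genes), whose sign turned without hydrogel replicate 3 (-0.09, 15 above 0) or PCL replicate 2 (-0.02), and which was 0.16 without hydrogel replicate 2, 0.15 without PCL replicate 3 and 0.08 without hydrogel replicate 1. In this comparison 1 gene passed the fold threshold, Sema3c, higher in PCL by 1.30 (SE 0.35, limma adjusted p = 0.44), where 0.546% of all genes were called higher. It passed under every alternative and with each library left out. None was called lower (0.222% of all genes), 0 passed an adjusted p under 0.05 (0.103% of all genes), and 5 had an unadjusted p under 0.05 in limma (4 higher and 1 lower, where 2.89% and 5.34% of all genes were) and 5 in limma-voom (0 adjusted in the latter).

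The ephrins and Eph receptors gave few calls. Ephb4, a receptor of veins and osteoblasts, was at 17.0, 13.1 and 19.9 FPKM in the control group, 11.9, 15.4 and 9.53 FPKM in the hydrogel group, 13.2, 13.3 and 10.0 FPKM in the PCL group and 15.2, 15.0 and 14.8 FPKM in the β-TCP group. Its ligand Efnb2, of arteries and osteoclasts, was lower in level, at 6.17, 4.66 and 12.1 FPKM in the control group and 2.50, 3.84 and 3.27 FPKM in the hydrogel group, which did not overlap. The difference was -0.96 (SE 0.31, limma adjusted p = 0.31), under the fold threshold, and passed it with a pseudocount of 0.1, median-of-ratios scaling or limma-voom. Efnb1, a ligand of bone and skull development, was the highest ephrin at 20.8 FPKM over all libraries, with 15.9 ± 6.39 FPKM in the hydrogel group and 24.5 ± 2.25 FPKM in the β-TCP group (limma adjusted p = 0.13).

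Among the A class, Efna1 had 8.01 ± 2.67 FPKM (SD, n = 3) in the control group and 4.81 ± 0.130 FPKM in the PCL group (limma adjusted p = 0.22). Efna5 had 2.23 ± 0.552 FPKM in the hydrogel group and 4.58 ± 1.41 FPKM in the β-TCP group (limma adjusted p = 0.12). Efna2, a ligand known from osteoclasts, was at 3.25, 4.71 and 4.68 FPKM in the β-TCP group and at 1.68 to 3.18 FPKM in the other 9 libraries, with 0.62 against control (SE 0.21, limma adjusted p = 0.12). The β-TCP libraries did not overlap with the rest. Its receptor Epha2, by contrast, had 7.54 ± 0.750 FPKM in the β-TCP group and 8.06 ± 2.52 FPKM in the control group (-0.05, SE 0.25). Ephb6, an Eph receptor without kinase activity, was at 3.32, 3.40 and 4.51 FPKM in the hydrogel group and 1.87, 1.67 and 1.86 FPKM in the β-TCP group, the reverse of most guidance genes, with -0.75 (SE 0.24, limma adjusted p = 0.075). Ephb2 was at 2.75 ± 1.40 FPKM in the control group, where control replicate 3 had 4.36 FPKM, and at 2.29 ± 0.152 FPKM in the β-TCP group.

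Slit2 and Slit3 were expressed at near-equal levels, with means of 20.4 and 18.5 FPKM, well above their receptors Robo2 (3.11 FPKM) and Robo1 (1.65 FPKM). Slit2 was at 31.3, 26.7 and 26.9 FPKM in the β-TCP group, 18.8, 18.9 and 8.89 FPKM in the hydrogel group, 18.5, 21.4 and 13.9 FPKM in the PCL group and 22.8, 21.2 and 15.0 FPKM in the control group. The β-TCP libraries were above all others, and the difference from hydrogel was 0.89 (SE 0.27, limma adjusted p = 0.071). Slit3 was at 19.6, 22.4 and 21.2 FPKM in the β-TCP group, within the control range of 18.0 to 25.8 FPKM, and above the hydrogel group at 18.2, 18.4 and 8.76 FPKM (0.52, SE 0.26, limma adjusted p = 0.17). Robo1 and Robo2 differed by 0.35 (SE 0.17) and 0.25 (SE 0.25) between the same groups, with limma adjusted p of 0.17 and 0.47.

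The netrins were low. Ntn4, a netrin of basement membranes, was the highest at a mean of 2.12 FPKM, with 2.61 ± 0.216 FPKM in the control group and 1.82 ± 0.527 FPKM in the PCL group (limma adjusted p = 0.27). Ntn1, the founding netrin and a factor known from osteoclast differentiation, was at 0.953, 1.79 and 1.78 FPKM in the β-TCP group, 0.325, 0.738 and 0.276 FPKM in the hydrogel group, 0.522, 0.215 and 0.250 FPKM in the PCL group and 0.490, 0.875 and 1.83 FPKM in the control group. Its β-TCP libraries were above the hydrogel and PCL libraries and overlapped with control. The difference from PCL was 0.90 (SE 0.24, limma adjusted p = 0.11), and on this scale a change at such low levels is understated: with a pseudocount of 0.1 Ntn1 passed the fold threshold against hydrogel and against PCL, as did Ntn3. Ntn1 rested on 9 to 72 fragments per library, so counting error is large.

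Of the partners of these pathways, 10 of the 20 netrin receptors and relatives were tested and 0 were called in any comparison. Of the 26 tested partners of semaphorin signalling, 2 were higher and 1 lower past the fold threshold in β-TCP against hydrogel (3.36% and 5.02% of all genes), and 2 were higher and 0 lower in β-TCP against control (2.49% and 1.03% of all genes), with Met and Rnd1 higher in both. Met, the receptor of hepatocyte growth factor that can pair with B plexins, was at 13.7, 9.58 and 6.32 FPKM in the PCL group and 2.25, 2.56 and 2.44 FPKM in the control group, a difference of 1.61 (SE 0.26, limma adjusted p = 0.034). It was also higher in the β-TCP group than in control by 1.12 (SE 0.26, limma adjusted p = 0.038). Rnd1, a small GTPase that binds plexins, was at 10.7, 10.0 and 9.62 FPKM in the β-TCP group and at 1.76 to 3.85 FPKM in the other 9 libraries. It was higher than in control by 1.46 (SE 0.19, limma adjusted p = 0.0089), than in hydrogel by 1.66 (adjusted p = 0.0068) and than in PCL by 1.78 (adjusted p = 0.0075). Timd2, a receptor of Sema4a, passed the fold threshold, higher in hydrogel than in control by 1.31 and lower in β-TCP than in hydrogel by -1.62, with limma adjusted p of 0.31 and 0.053.

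Of the 19 tested partners of ephrin signalling, 3 were higher in β-TCP than in control at an adjusted p under 0.05 (Src, Sdcbp and Tiam1) and 0 lower, where 4.22% and 0.562% of all genes were. Src, a kinase that ephrin signalling engages and that osteoclasts need, was at 57.8, 50.5 and 50.9 FPKM in the β-TCP group and at 18.3 to 31.5 FPKM in the other 9 libraries, a difference from control of 0.89 (SE 0.18, limma adjusted p = 0.026). Abl2, a kinase that acts on the cytoskeleton, was higher in β-TCP than in PCL by 1.03 (SE 0.20, limma adjusted p = 0.048). Ngef, which binds an Eph receptor, was lower past the fold threshold in hydrogel, PCL and β-TCP than in control, at -1.07, -1.06 and -1.28, with limma adjusted p of 0.31, 0.26 and 0.16. Control replicate 3 had 27.9 FPKM of Ngef, against 6.42 and 7.63 FPKM in the other control libraries and 2.69 to 6.49 FPKM in the scaffold groups. Of the 15 tested partners of Slit and Robo, 3 were higher in β-TCP than in hydrogel at an adjusted p under 0.05 (5.17% of all genes) and 0 lower (0.966%), the 3 being Flrt3 (1.40, adjusted p = 0.010), Sdc1 (1.53, adjusted p = 0.015) and Sdc4 (1.31, adjusted p = 0.046). Flrt3 is a membrane protein that binds Robo1, and Sdc1 and Sdc4 are heparan sulfate carriers. Flrt3 was at 3.29, 4.25 and 4.41 FPKM in the β-TCP group and 0.959, 0.965 and 0.729 FPKM in the hydrogel group, which did not overlap. Gpc1, another heparan sulfate carrier, was past the fold threshold, lower in hydrogel than in control at -1.28 (SE 0.35, limma adjusted p = 0.31), with 224 FPKM in control replicate 3 and 81.5 and 113 FPKM in the other control libraries. These genes have other functions outside guidance, and the osteoclast marker sums given above were higher in the same libraries, whose part in them was not tested.

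Some guidance genes are neighbours in the genome. In the gene order of GRCr8, Efna1, Efna3 and Efna4 follow each other with 0 protein-coding genes between them, as do Sema3a and Sema3d, and Robo4 and Robo3. Their values differed: Sema3a was highest in the β-TCP group at 2.05 ± 0.137 FPKM (SD, n = 3) and Sema3d in the control group at 17.4 ± 11.6 FPKM, and Efna3 had 0.452 ± 0.152 FPKM in the control group, where Efna4 had 3.14 ± 0.690 FPKM.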

How the data were processed

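RNA-Seq was analysed in 12 libraries (4 groups of 3, by the source name in the labels). The authors deposited FPKM per gene, made with Trimmomatic, hisat2 and cufflinks; the submitters' processing notes, which give no versions, add Bowtie, HTSeq, StringTie, DESeq and the build Rnor_6.0. The paper and the labels differ on the RNA kit, library kit and sequencer. The values of 3 further columns, which match no label, were not used. FPKM were whole multiples of 1 fragment in 18684 of 18684 genes above 0 (tolerance 0.01), which gave 15035925 to 17357830 fragments per library; this recovery and the test were checked on simulated data.

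The 12633 of 22601 genes that reached 1 FPKM in 3 or more libraries were tested in R 4.3.3 (limma 3.58.1) after log2(FPKM + 1), a scale on which folds of low genes are understated, in 1 fit of all libraries with group means, a trend and two-sided Benjamini-Hochberg adjusted p. The symbol rule for members used no measured value, but the rule and the lists were set with earlier results of these data known. Named genes are all members past the study's fold threshold (p under 0.05, fold over 2 or under 0.5) or an adjusted p of 0.05, the 2 highest of each family, members with a known role in bone, and, from each partner list, at most 4 past the fold threshold; others named were chosen after their values were seen. The osteoclast marker Ocstamp matched no row. Coordinates of the files' build were not used here.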

Additional observations from a re-analysis of the deposited data

How the results depend on the processing

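Of 418 single-gene alternatives, 323 kept direction and side of the threshold, 95 lost the threshold and 0 reversed. Counts past the fold threshold were 4 (pseudocount 0.1) and 5 (limma-voom) in place of 2 in hydrogel against control, 4 and 4 in place of 2 in PCL against control, 10 and 11 in place of 6 in β-TCP against hydrogel, while β-TCP against PCL had 4 and 4 in place of 2, and there median-of-ratios scaling gave 1 and β-TCP replicates 2 and 3 averaged gave 0. In β-TCP against control limma-voom gave 1 in place of 0. At an adjusted p under 0.05, β-TCP against control gave 1 with no filter on low values and with limma-voom, and 0 with a fit of only the 2 groups and with the average, in place of 2. β-TCP against hydrogel gave 16 with the 2 groups alone (14 higher, 2 lower) and 0 with the average, in place of 7, and β-TCP against PCL gave 12 with the 2 groups alone in place of 0. Among the 4 groups 1 gene became 0 with a pseudocount of 0.1, no filter, limma-voom or the average, and 2 with median-of-ratios scaling. No share of all genes called is given for these alternatives, so their counts cannot be read as particular to guidance genes. The cause of these shifts was not tested.

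Replicate numbers were taken from the labels, and the values did not show that they pair the libraries. Of 18 same-number pairs 4 had a correlation of deviations over 0.1 (-0.61 to 0.47), and 2 of 12 libraries were closest to their own number. With groups of 3 libraries, some of which stood apart, this check cannot exclude a pairing. With the replicate block, calls at an adjusted p under 0.05 were 1 in β-TCP against control, 4 in β-TCP against hydrogel and 0 among the 4 groups.

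With each library left out in turn, counts past the fold threshold ran from 0 to 5 in hydrogel against control, 1 to 4 in PCL against control, 0 to 3 in β-TCP against control, 2 to 8 in β-TCP against hydrogel and 0 to 4 in β-TCP against PCL, and stayed at 1 in PCL against hydrogel. Calls at the adjusted p ran from 0 to 4 in β-TCP against control, 0 to 15 in β-TCP against hydrogel, 0 to 7 in β-TCP against PCL and 0 to 12 among the 4 groups, and were 0 in the other 3 comparisons. The 12 and 15 were without control replicate 3, and no share of all genes called is given for that fit. Depth limits genes of low count, such as Ntn1 and Ntn3 with 72 fragments or fewer in any library.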
